A study of Mus musculus with 4 samples.

Results

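Olfactory receptor genes carried 924 of the 474611 autosomal regions (484555 in all) at which the study's table compares DNA methylation between mouse hair matrix keratinocytes with and without Tet2 and Tet3. A region was kept where it overlapped a protein-coding olfactory receptor gene, or the 5 kb on either side of it, on chromosomes 1 to 19 of the GRCm38 (mm10) assembly. The autosomes hold 1100 such genes, and 419 of them (38.1%) had at least 1 region in this window. Hair matrix keratinocytes are the dividing epithelial cells at the base of the follicle that build the hair. The cells were sorted from mice at postnatal day 4.5, and whole-genome bisulfite sequencing was run on 2 WT libraries and on 2 libraries lacking both Tet2 and Tet3 through Krt14-Cre (DKO). Krt14-Cre acts in the basal epithelium from which the matrix descends, so other skin cells keep both genes. Nothing in the labels ties the libraries to separate animals. The study's design text speaks of native or formaldehyde-fixed cells without assigning either to a library.

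Olfactory receptors are the G protein-coupled odorant receptors of the nose, and each olfactory sensory neuron expresses a single receptor allele out of the whole repertoire. Their genes are short, mostly without introns in the coding part, and sit in clusters of near copies that are silent heterochromatin in most other tissues. TET proteins turn 5-methylcytosine into 5-hydroxymethylcytosine and further oxidised forms, from which unmethylated cytosine can be restored. Bisulfite conversion does not separate the first 2 of these marks, so a methylation level here is their sum.

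At these regions methylation was high in both genotypes and slightly lower in the DKO. The median level was 77.1% for WT and 71.3% for DKO, with a median difference of -5.87 percentage points (DKO minus WT). Of the 924 regions, 821 (88.9%) were lower in the DKO, against 51.1% of all autosomal regions. Only 39 (4.22%) were at least 20 points higher in the DKO, against 23.3% of all autosomal regions. Losses were small but frequent: 104 regions (11.3%) were at least 10 points lower, against 2.11%, and 566 (61.3%) were at least 5 points lower, against 15.9%. None was 20 points lower, a size that 0.0605% of all autosomal regions reached. The table gives 1 mean per genotype and region and no value per library, so no test could be run, and the shares are a description beside the background.

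The annotated promoters held few CpGs. Promoter here means only the bases around the RefSeq start. Most receptor models (898 of 1100) are at most 1100 bp. Their RefSeq start may be that of the coding part and not that of transcription. Among 938 RefSeq promoters of 934 receptor genes (300 bases each, 250 before the start and 50 after it), the median held 1 CpG and 33.6% held none. The 19146 promoters of other protein-coding genes held a median of 15 CpGs, and 2.97% held none. A listed region overlapped 34 receptor promoters (3.62%), 12 of 321 vomeronasal receptor promoters (3.74%) and 36.1% of the other promoters. In the 250 bases before the start alone, 31 receptor promoters met a region, of which 27 were lower in the DKO, 4 were higher and 2 were at least 20 points higher. The 6 sequences below are those with the largest differences of each sign, the 2 large gains first and then 4 losses. They are the 250 bases before the RefSeq start (GRCm38.p6), 5′ to 3′ on the gene's strand, with each CpG in capitals.
Olfr750: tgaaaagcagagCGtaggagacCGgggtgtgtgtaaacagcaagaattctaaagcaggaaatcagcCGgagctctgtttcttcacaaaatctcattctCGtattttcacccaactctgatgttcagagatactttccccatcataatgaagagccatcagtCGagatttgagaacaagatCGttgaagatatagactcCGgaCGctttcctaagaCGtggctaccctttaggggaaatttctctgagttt
Olfr71: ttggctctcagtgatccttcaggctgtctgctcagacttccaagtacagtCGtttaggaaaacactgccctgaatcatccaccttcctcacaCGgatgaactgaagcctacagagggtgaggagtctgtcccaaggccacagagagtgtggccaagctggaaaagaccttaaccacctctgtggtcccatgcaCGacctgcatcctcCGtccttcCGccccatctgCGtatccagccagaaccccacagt
Olfr1298: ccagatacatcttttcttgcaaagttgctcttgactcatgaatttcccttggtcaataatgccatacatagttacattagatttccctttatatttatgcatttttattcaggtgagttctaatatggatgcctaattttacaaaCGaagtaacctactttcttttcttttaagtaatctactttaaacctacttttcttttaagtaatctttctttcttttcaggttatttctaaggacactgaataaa
Olfr889: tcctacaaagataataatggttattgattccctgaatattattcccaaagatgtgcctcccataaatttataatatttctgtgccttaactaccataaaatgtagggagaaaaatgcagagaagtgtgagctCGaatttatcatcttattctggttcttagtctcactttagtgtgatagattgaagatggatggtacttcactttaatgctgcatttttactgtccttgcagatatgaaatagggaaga
Olfr963: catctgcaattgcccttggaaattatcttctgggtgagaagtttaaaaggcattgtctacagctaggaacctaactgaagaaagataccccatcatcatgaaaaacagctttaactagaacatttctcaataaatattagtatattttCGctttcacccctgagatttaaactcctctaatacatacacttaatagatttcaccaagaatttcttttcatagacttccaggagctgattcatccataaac
Olfr1173: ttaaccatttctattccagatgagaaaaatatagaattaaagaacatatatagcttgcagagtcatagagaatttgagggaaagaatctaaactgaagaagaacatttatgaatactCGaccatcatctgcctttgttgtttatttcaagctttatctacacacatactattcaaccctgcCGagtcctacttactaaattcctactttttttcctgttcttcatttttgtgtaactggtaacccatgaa

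The 6 differ in CpG number, but they were chosen by their difference, and among the other promoters lower in the DKO Olfr370 has 6 CpGs and Olfr56 and Olfr279 have 5. Olfr750 (chr14:51071443-51071692, minus strand) has 9 CpGs and Olfr71 (chr4:43706567-43706816, minus strand) has 6, and all of them lie inside the listed region. In the authors' deposited table, the region over the Olfr750 start had a level of 36.7% in WT and 73.5% in DKO. The authors' deposited table gives the Olfr71 region 47.1% and 79.5%. Olfr1298 (chr2:111645996-111646245, minus strand), Olfr889 (chr9:38115548-38115797, plus strand) and Olfr963 (chr9:39668809-39669058, plus strand) each have 1 CpG. Olfr1173 (chr2:88275048-88275297, minus strand) has 2. The differences at these promoters in the authors' deposited table were -13.4 points at Olfr1298, -10.8 at Olfr889, -10.8 at Olfr963 and -9.86 at Olfr1173. The letters TAATTA, a core bound by many homeodomain factors and the same on both strands, occurred in 176 of the 938 receptor promoters (18.8%). The share was 3.77% for the promoters of other coding genes, which hold more CpGs (median 15 against 1). Base composition was not matched, and its part in these shares was not tested. None of the 6 sequences above holds TAATTA.

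The levels were spread over a narrow band. The middle 50% of differences ran from -8.03 to -3.70 points, and the whole range from -18.2 to 44.7. A WT level of at least 60% was seen at 827 regions (89.5%), against 72.1% of all autosomal regions, and a WT level under 20% at 5 regions. The difference was larger than the spread estimate that the authors' deposited table gives each region (median 3.74 points) at 769 regions (83.2%), against 54.8% of all autosomal regions. The regions were also small, with a median of 4 measured positions and 112 bp, against 8 positions and 258 bp over all autosomal regions. A position is a cytosine, and the strands of a CpG mostly count apart, so a median region held about a pair of CpGs. The table lists regions only beyond a bound of its statistic, with no extreme statistic between -4.02 and 1.53. The sign of the statistic is not the sign of the difference: 851 receptor regions had a positive statistic, the 821 lower in the DKO and the 30 that were up to 10 points higher. Listed losses and gains are therefore not the balance over all CpGs, and each share is read only against regions listed under the same bounds.

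**Figure D1:**
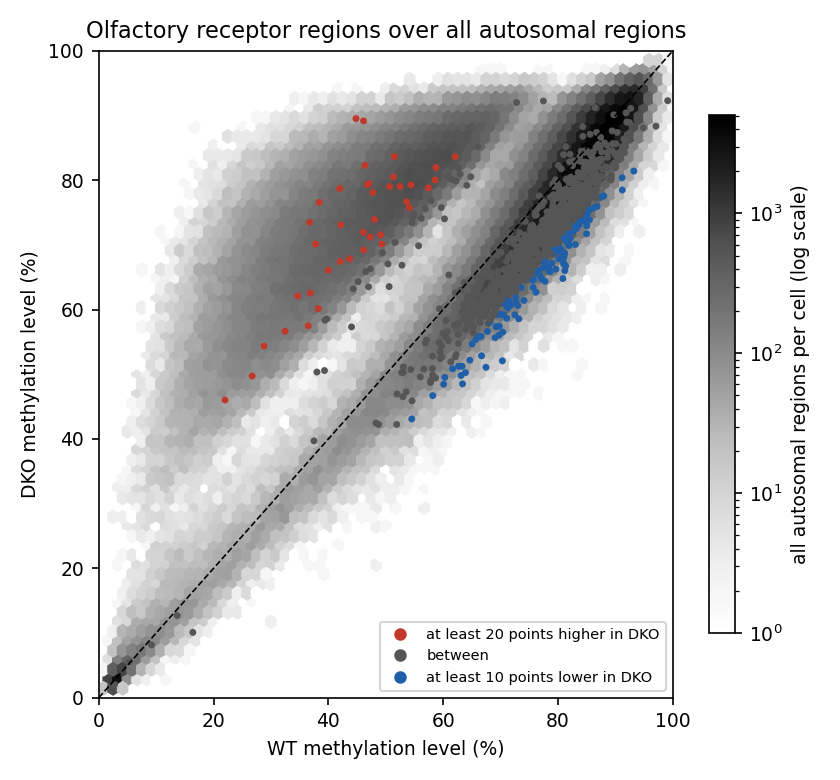
WT level (horizontal axis, percent) against DKO level (vertical axis, percent) for the 924 olfactory receptor regions (points) over the density of all 474611 autosomal regions (grey, log scale). Most points form a band just under the diagonal between 60 and 90% in the WT, and the 39 red points at least 20 points higher in the DKO lie in the cloud that starts from middle WT levels.

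The WT level went with the direction. At a WT level of 80 to 100%, the 343 receptor regions had a median difference of -5.81 points, against -1.44 for all autosomal regions of that level. At 60 to 80%, the 484 receptor regions had a median of -6.34, against -2.24. At 40 to 60%, 26 of the 75 receptor regions (34.7%) were at least 20 points higher in the DKO, against 76.4% of all autosomal regions of that level. At 20 to 40%, 12 of 17 (70.6%) were, against 86.2%. Thus 38 of the 39 gains started between 20 and 60% in the WT. The 5 regions under 20% differed by -6.28 to 0.26 points.

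**Figure D2:**
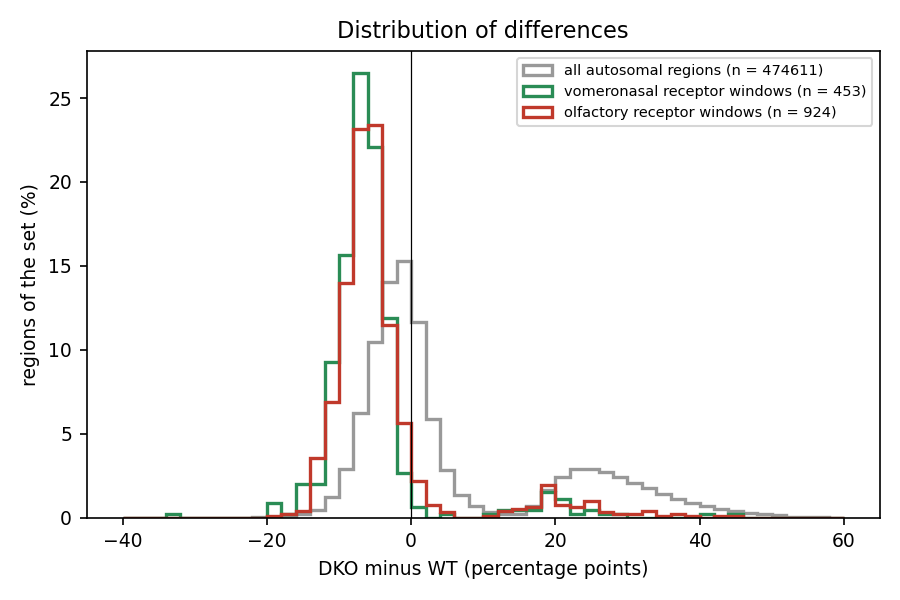
Share of regions (percent of each set) by the difference DKO minus WT in percentage points, for olfactory receptor windows (924), vomeronasal receptor windows (453) and all autosomal regions (474611). The curves of both receptor families peak between -8 and -4 points, while the curve of all autosomal regions peaks near 0 and has a second rise above 20 points.

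Vomeronasal receptors, the pheromone receptors of a separate sensory organ, form clusters of the same kind and gave similar values. Their 352 autosomal genes had 453 regions at 144 genes, with a median of 74.4% in WT and 68.0% in DKO. The median difference was -6.55 points, 93.4% of regions were lower in the DKO, 2.65% were at least 20 points higher and 14.6% were at least 10 points lower. The windows of the 19557 other protein-coding genes stood apart from both, with a median difference of 0.63 points over 257508 regions, 26.6% at least 20 points higher and 1.05% at least 10 points lower. A region lay in the window of 93.2% of those genes. Per megabase of window, olfactory receptors had 73.9 regions and other coding genes 232. Their windows also held fewer measured positions, 8.33 per kb against 18.2, and a smaller share of those positions fell in a listed region, 5.94% against 21.3%. Per megabase, regions at least 20 points higher numbered 3.12 at olfactory receptors and 61.7 at other coding genes, and regions at least 10 points lower numbered 8.31 and 2.44.

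The density of measured positions in the surrounding sequence moved with these differences. Within 10 kb on each side, receptor regions had a median of 8.35 positions per kb, against 17.2 for all autosomal regions, and 626 of the 924 (67.7%) had 5 to 10 per kb. In that class the median difference was -6.34 points, against -4.36 over the 82679 autosomal regions of the same class. Regions at least 10 points lower made up 13.6% there, against 6.98%, and regions at least 20 points higher 2.72%, against 8.88%. At 10 to 15 per kb the medians were -5.52 (166 receptor regions) and -0.81 points, and at 15 to 20 per kb they were -2.51 (83 receptor regions) and 0.71. Above 20 per kb the 37 receptor regions had a median of -0.71 points, and 27.0% were at least 20 points higher, against 1.40 points and 30.1% over all autosomal regions of that class. The receptor regions were thus lower than the background within each of these 4 density classes, by the widest margin at 10 to 15 per kb, while under 5 per kb the 12 receptor regions had a median of -4.99 against -7.42. The part of density in the family's values was not tested.

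The number of positions in a region moved with the difference as well. Regions of 1 or 2 positions (350) had a median of -6.36 points, those of 3 to 9 (387) of -5.94, and those of at least 10 (187) of -4.99. The matching medians over all autosomal regions were -1.70, -0.88 and 0.86. In the largest class 8.02% were at least 20 points higher and 4.81% at least 10 points lower, against 29.7% and 0.68%. By place relative to the gene, medians lay close together and share of losses varied more. The median was -5.08 points over 169 regions that touch a gene body, -6.19 over 287 upstream, -6.03 over 347 downstream and -6.05 over 121 at genes whose strand was not matched. In the same order, 7.10%, 12.2%, 10.7% and 16.5% were at least 10 points lower, and 4.14%, 4.18%, 4.90% and 2.48% at least 20 points higher. Just inside the edge of the window, at 4 to 5 kb from the gene, 127 regions had a median of -5.82, and just outside, at 5 to 6 kb, 126 regions had -6.40. Inside, 11 (8.66%) were at least 10 points lower, none at least 20 points lower and 2 at least 20 points higher, and outside these numbers were 19 (15.1%), 2 and 5.

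Distance from other genes separated the receptor regions more than their place at the receptor gene. The 40 regions within 5 kb of a protein-coding gene of another kind had a median of -0.39 points, with 8 at least 20 points higher and 4 at least 10 points lower. Between 5 and 20 kb (109 regions) the median was -3.01 points, with 11 such gains and no such loss. It was -5.02 at 20 to 50 kb (167), -6.49 at 50 to 100 kb (171), -6.58 at 100 to 200 kb (157) and -6.51 beyond 200 kb (280). Beyond 50 kb, where 608 of the 924 regions lay, 93 of the 104 losses of at least 10 points were found, and 15 of the 39 gains of at least 20. All regions in windows of other coding genes had a median of 0.63 points, with 26.6% such gains and 1.05% such losses. Autosomal regions beyond all coding windows had -1.32, with 19.4% and 3.34%. The same distance classes were not computed over all autosomal regions, so whether this gradient is particular to receptor regions was not tested.

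**Figure D3:**
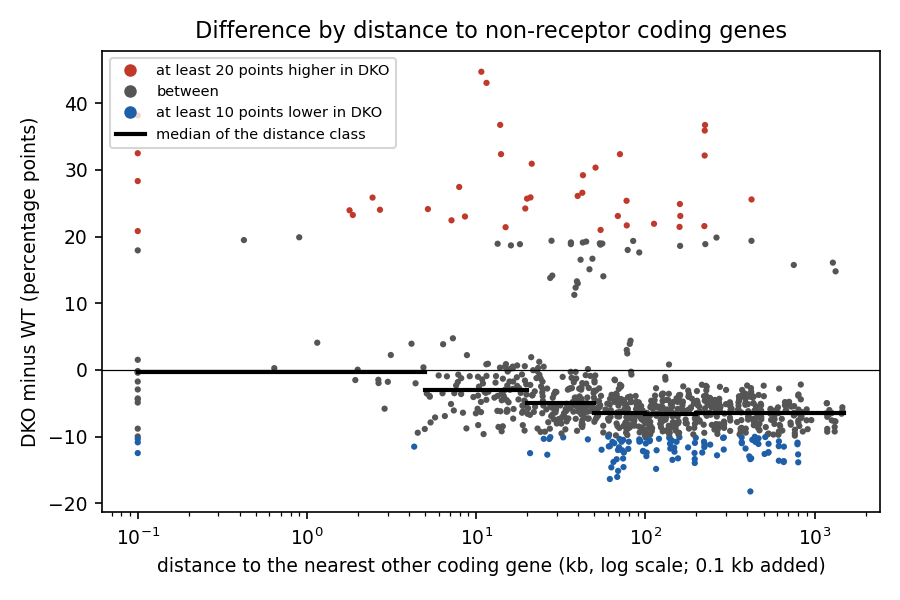
Difference DKO minus WT (percentage points) of each receptor region against its distance to the nearest protein-coding gene of another kind (kb, log scale, with 0.1 kb added so that overlaps can be drawn). The black bars are class medians, which go from -0.39 within 5 kb to -6.49 at 50 to 100 kb and then stay level.

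The sequence between the receptor windows had a median close to that of the windows, with more large differences. Inside the spans of the receptor clusters (runs of receptor genes with gaps of at most 1 Mb), 1630 regions lay beyond 5 kb of any protein-coding gene. They had a median of -5.95 points, with 13.7% at least 10 points lower and 7.24% at least 20 points higher. Of them 12 (0.74%) were at least 20 points lower, down to -47.9, a size not reached in the windows. The 1001 regions in the same spans that lay in windows of other coding genes had a median of -0.42, with 3.10% and 21.8%. In the 1 Mb on either side of the clusters, 18368 regions had a median of -0.05, and the 5836 of these beyond all coding windows had -1.49, with 3.80% at least 10 points lower.

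The receptor genes formed 48 clusters, 9 of them single genes, and 38 held at least 1 region. In each of the 31 clusters with at least 5 regions (904 regions together) the median difference was below 0, from -9.63 to -0.97 points, with a middle value of -5.49. Losses of at least 10 points occurred in 19 clusters and gains of at least 20 in 16. Among the 7 clusters with fewer regions, Olfr520 and Olfr521 on chromosome 7 had 3 regions that differed by 0.12 to 19.4 points, all higher in the DKO. The other 1 whose regions were all higher was Olfr1378 to Olfr1375 on chromosome 11, with 1 region (15.1 points). The 10 clusters without a region hold 14 genes.

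Among the 31 clusters with at least 5 regions, the lowest median came from 8 genes, Olfr1344 to Olfr1350, on chromosome 7 (6439902 to 6570919). All 15 of its regions were lower in the DKO, each by at least 5 points and 6 of them by at least 10, and the DKO median was 68.8%. Next came 94 genes on chromosome 9 (37711348 to 40188094, Olfr160 to Olfr986), where 49 of 50 regions were lower, 13 by at least 10 points, with a median of -8.24. All 50 regions of the 63 genes on chromosome 19 (11828077 to 13919972) were lower, 10 of them by at least 10 points, with a median of -7.79. The largest cluster, 222 genes on chromosome 2 (85330967 to 90401674), had 126 regions at 65 genes. Of these, 123 were lower, 12 by at least 10 points, none was at least 20 points higher, and the median was -6.62 points, with a DKO median of 72.8%.

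Clusters with medians nearer to 0 varied in density and in gains. The 6 genes Olfr70 to Olfr155 on chromosome 4 (43695000 to 43855463) had a median of -1.02 points over 12 regions, of which 3 were at least 20 points higher, at 18.9 measured positions per kb. Densities here are over the whole cluster span, sequence between the receptor windows included. The 24 genes Olfr30 to Olfr225 on chromosome 11 (58454915 to 59614225) had the densest span, 22.6 positions per kb. Their 34 regions had a median of -3.04, with 5 gains of at least 20 points and no loss of at least 10. The 12 genes on chromosome 13 (21072349 to 21703965) had a median of -1.63 over 20 regions. The 5 regions of the pair Olfr161 and Olfr15 on chromosome 16 had a median of -0.97 with no gain of at least 20 points. The 6 regions of Olfr55 to Olfr63 on chromosome 17, the sparsest span at 6.32 positions per kb, had -1.32. The 9 regions of Olfr1416 to Olfr12 on chromosome 1 also had -1.32, with no gain of at least 20 points, at 12.5 positions per kb. A cluster on chromosome 1 (172956768 to 174449602, Olfr16 to Olfr220) had the lowest WT median of the 31, 58.9% against 57.5% in DKO, and held both directions, with 5 gains of at least 20 points and 8 losses of at least 10 among 34 regions.

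**Figure D4:**
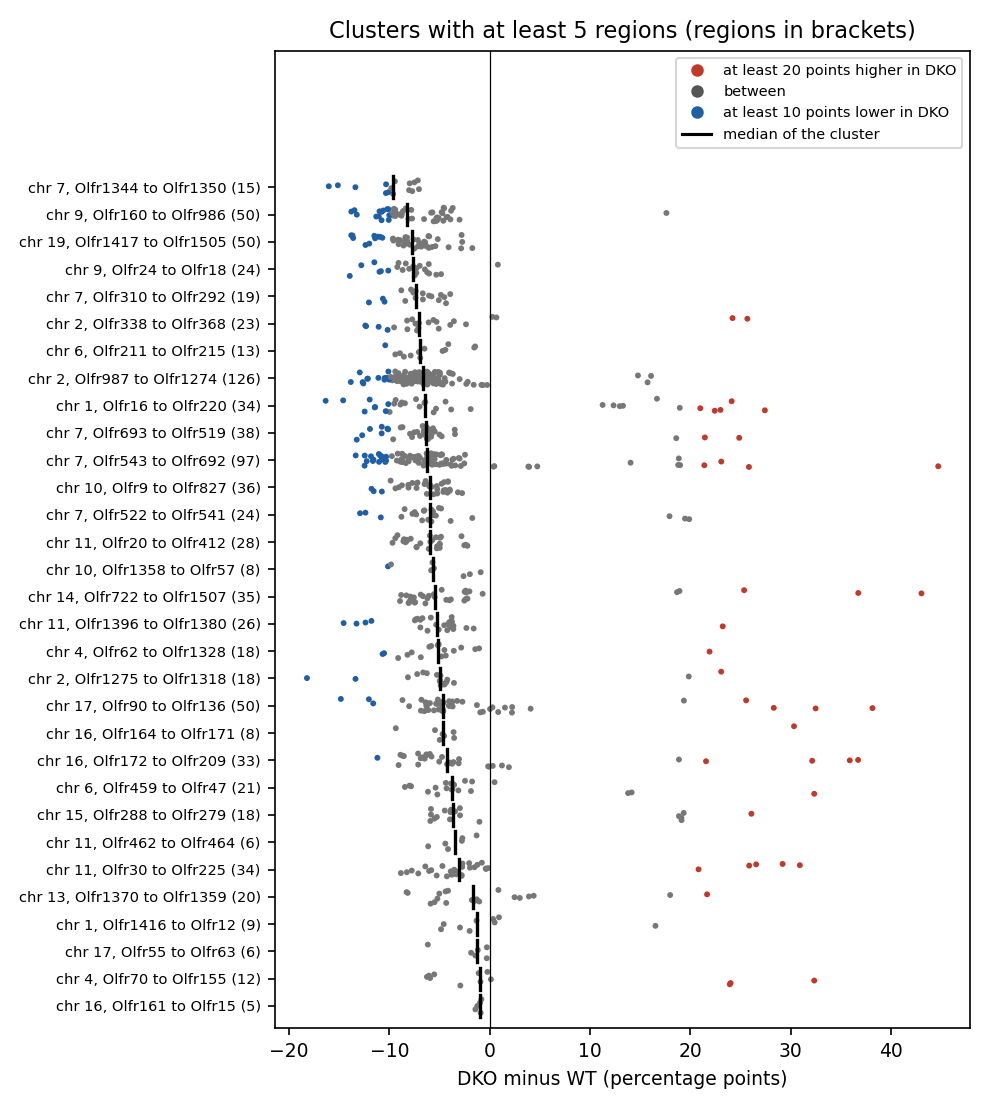
Difference DKO minus WT (percentage points) of each region in the 31 receptor clusters with at least 5 regions, in order of the cluster median (black bar). The medians run from -9.63 at the top to -0.97 at the bottom. The gains of at least 20 points (red) are scattered over clusters with medians from -7.05 to -1.02, and clusters with lower medians hold none.

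Mammalian receptors fall into class I, the older group shared with fish and gathered mostly in a single large cluster, and class II, which makes up the rest. By the family numbers in the gene synonyms, 124 genes were class I and 961 class II. The 89 class I regions had a median of -6.09 points, with 4 gains of at least 20 points and 14 losses of at least 10. The 807 class II regions had a median of -5.85, with 35 gains and 89 losses. The main class I cluster on chromosome 7 (102476773 to 105369317, 126 genes) had 97 regions with a median of -6.25, of which 84 were lower. The Hbb globin genes lie inside it. The windows of Hbb-bt, Hbb-bh1, Hbb-bh2 and Hbb-y had no region, and that of Hbb-bs had 1, at -5.50 points in the authors' deposited table.

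The 39 gains of at least 20 points lay at 26 places, 9 of which held more than 1 region. The largest, between the class I genes Olfr543 and Olfr544 at chr7:102480398-102481627 (36 positions), had 44.8% in WT and 89.5% in DKO in the authors' deposited table, with a spread estimate of 3.70 points. Over the body of Olfr543 (chr7:102476955-102477175), the authors' deposited table gives 86.5% and 91.2%. At Olfr750 on chromosome 14 the authors' deposited table lists a gain of 43.0 points downstream (chr14:51068651-51069741, 46.1% to 89.2%, spread 3.75). The second gain there, 36.7 points, covered the gene start (chr14:51071003-51071680, 58 positions, spread 3.38) and the promoter printed above. A CpG-dense region at chr14:51064982-51066103 (114 positions) was at 2.78% in WT and 2.07% in DKO in the authors' deposited table. Methylation near this unmethylated stretch was thus high in the DKO and intermediate in the WT.

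Olfr94 on chromosome 17 had a similar arrangement. In the authors' deposited table, 3 regions downstream of it, between 37193964 and 37195077, were 28.3, 32.5 and 38.2 points higher in the DKO. They also lie in the window of Ubd, which encodes a ubiquitin-like modifier. A region over the Olfr94 body, chr17:37196642-37197719 (168 positions), was at 5.33% in WT and 5.59% in DKO in the authors' deposited table. All 8 regions of Olfr94 were higher in the DKO, by 0.03 to 38.2 points. The third region of very low level, chr15:98180277-98181545 downstream of Olfr288 (112 positions), had 9.21% and 8.18% in the authors' deposited table.

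The other named gains of at least 10 positions were near Olfr459, Olfr71, Olfr223 and Olfr225. In the authors' deposited table, the region upstream of Olfr459 (chr6:41774949-41776292) had 37.8% in WT and 70.1% in DKO, with a spread of 3.40 points. The region that begins 23 bp before Olfr71 (chr4:43706589-43707430) was 32.3 points higher in the authors' deposited table (spread 3.31). Olfr223 and Olfr225 lie in the same cluster on chromosome 11. Downstream of Olfr223 (chr11:59588151-59588802) the authors' deposited table gives 42.2% and 73.1% (spread 3.22), and upstream of Olfr225 (chr11:59609606-59609997) it gives 51.3% and 80.5% (spread 3.52). The authors' deposited table gives -1.23 points over the Olfr223 body and -2.72 to -0.79 points downstream of Olfr225, so the gains there did not extend over the whole window. Each of these gains was several times the region's spread estimate. They were chosen as the largest gains, and no receptor region had a spread above 6.64 points, so this adds no support.

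Gains and losses also met within single genes, and 3 genes (Olfr183, Olfr429 and Olfr1339) had both a gain of at least 20 and a loss of at least 10 points. Olfr433, Olfr424 and Olfr368, described below, did not have both. Olfr183 on chromosome 16 had the most regions, 13, in the window of a gene model of 71199 bp, where most receptor models (898 of 1100) are at most 1100 bp. In the authors' deposited table, 4 of them between 58957198 and 58959310 were 21.6 to 36.7 points higher in the DKO, and 1 further on at 58975760 differed by -11.2. Olfr433 on chromosome 1 had 3 regions upstream at 22.4 to 27.4 points higher in the authors' deposited table, while the region over its start (chr1:174041909-174042849, 30 positions) differed by -3.85. Olfr424 in the same cluster had 7 regions: in the authors' deposited table, 4 upstream were 11.3 to 13.3 points higher and 3 downstream differed by -10.1 to -8.92. At Olfr368 on chromosome 2, the authors' deposited table gives gains of 24.2 and 25.7 points upstream and a body level of 86.7% in WT and 87.4% in DKO.

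**Figure D5:**
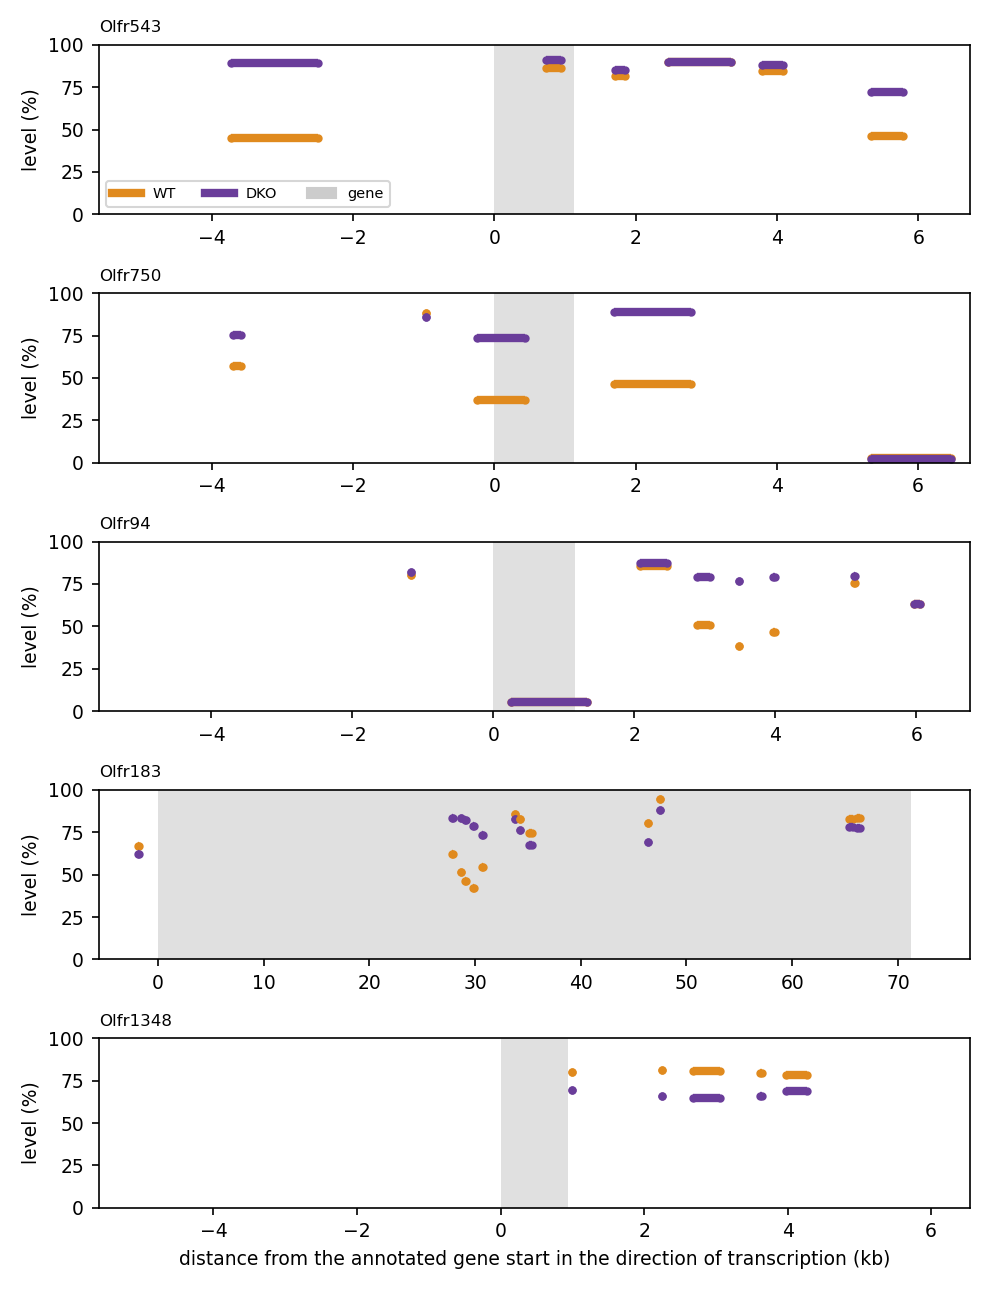
Level (percent) of each listed region in the WT (orange) and DKO (purple) by distance from the annotated gene start in the direction of transcription (kb), for Olfr543, Olfr750, Olfr94, Olfr183 and Olfr1348, with the gene shaded. Where both levels agree within the line width (the unmethylated regions of Olfr750 and Olfr94) the purple line covers the orange. At Olfr1348 the orange WT level is above the purple DKO level in all 5 regions.

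The 104 losses of at least 10 points lay at 64 places, 30 of which held more than 1 region. Downstream of Olfr1348, in the cluster with the lowest median, 4 regions between 6498580 and 6501224 on chromosome 7 differed by -16.1 to -10.3 points in the authors' deposited table. The widest of them, chr7:6499163-6499547 (12 positions), had 80.8% in WT and 64.8% in DKO in the authors' deposited table, with a spread estimate of 3.87 points. Upstream of Olfr830 (chr9:18870491-18871018) the authors' deposited table gives 81.0% and 67.0% (spread 3.71), and upstream of Olfr1053 (chr2:86318831-86319331) it gives 70.4% and 56.5% (spread 3.90). Losses in regions of at least 10 positions followed at Olfr220 and Olfr429 on chromosome 1, at -12.0 and -11.5 points in the authors' deposited table. The authors' deposited table then gives Olfr1490 on chromosome 19 at -10.9, Olfr307 on chromosome 7 at -10.7 and Olfr340 on chromosome 2 at -10.2 points. Each of these 8 exceeded its spread estimate. So did all 104 losses of at least 10 points, since no receptor region had a spread above 6.64 points. The largest loss of any size was a region of 2 positions upstream of Olfr1298 (chr2:111646705-111646706, 70.3% to 52.1% in the authors' deposited table, spread 4.97), near the promoter printed above.

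At the level of genes, small losses were the rule. Of the 419 genes with a region, 364 had all regions lower in the DKO, 18 had all higher and 37 had both. At least 1 lower region was thus listed at 401 of them and at least 1 higher region at 55. Of the 18229 other coding genes with a region, 16947 had a lower one and 15290 a higher one. A gene with few listed regions more easily has all of them in 1 direction. A gain of at least 20 points was seen at 27 of the 1100 genes (2.45%), against 71.1% of other coding genes, whose windows held many more regions. A loss of at least 10 was seen at 66 of the 1100 genes (6%), against 7.11% of other coding genes. The windows of other coding genes are longer, 1111 Mb over 19557 genes against 12.5 Mb over 1100. Per megabase of window such losses were more common at receptor genes, 8.31 against 2.44. A single region was listed for 148 genes, 2 for 128 and at least 3 for 143, and 47 regions were shared by neighbouring genes. Olfr661, a class I gene on chromosome 7, had 7 regions that differed by -11.8 to -7.11 points in the authors' deposited table, with WT levels of 65.3 to 70.5%. The 8 regions of Olfr287 on chromosome 15 were mixed, 3 being 18.9 to 19.1 points higher and 5 differing by -5.86 to -2.96 points in the authors' deposited table. Olfr91 on chromosome 17, with 7 regions in a model of 40147 bp, had differences of -6.86 to -0.69 points in the authors' deposited table. The widest regions, at Olfr376, Olfr1414 and Olfr311 (1801, 1763 and 1448 bp), differed by -5.28, -2.97 and -1.98 points in the authors' deposited table. Receptor genes are near copies of one another, so reads could be placed at the wrong copy, and levels at single genes are uncertain to that extent.

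The genes that serve the receptors had median values near those of all autosomal regions. Of 30 genes for odorant transduction and receptor choice, 29 are autosomal, 28 had a region, 22 had a region at least 20 points higher in the DKO and 6 had one at least 10 points lower. Of other coding genes, 71.1% had such a gain and 7.11% such a loss. Their 624 regions had a median difference of -0.08 points, and 24.2% were at least 20 points higher, against 23.3% of all autosomal regions. The authors' deposited table gives a region of Omp, which encodes the olfactory marker protein, as 34.5% in WT and 77.1% in DKO (chr7:98146055-98148117). Ric8b, a chaperone of the olfactory G protein, had 20.3% and 78.7% in the authors' deposited table. Cnga4, a subunit of the olfactory cation channel, had 20.2% and 63.9% in the authors' deposited table. Adcy3, the adenylyl cyclase of odorant signalling, had 39.7% and 80.6% in the authors' deposited table. The factors linked to receptor choice, Lhx2 and Kdm1a, had 39.0% and 84.9%, and 31.6% and 84.8%, in the authors' deposited table. These 6 genes are among those with the largest gains. Other members had medians like the receptors: all regions were lower in the DKO at Ncam2 (25 regions, median -5.46 points), Gfy (5, -7.26) and Neurog1 (2, -7.43). The medians were -5.36 points over 38 regions of Pde1c, -4.06 over 58 of Ebf1 and -6.49 over 3 of Emx2.

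Genes of the labelled cell type were checked in the same table. Of 7 hair matrix and epithelium markers, all had regions, and 6 had a region at least 20 points higher in the DKO (63 of 198 regions), against 93.2% and 71.1% of other coding genes. The exception was Hoxc13, whose differences ran from -13.9 to 0.78 points. The median difference over these 198 regions was 6.19 points. The lowest WT level listed at each of the 7 hair matrix and epithelium markers ran from 2.83% (Lef1) to 15.2% (Krt14). It ran from 28.6 to 61.5% at the immune markers and from 41.4 to 50.5% at the fibroblast and dermal papilla markers. The melanocyte markers were mixed, from 2.49% (Mitf) to 77.7% (Tyr), as were the endothelial markers Pecam1 (5.87%) and Cdh5 (26.9%). So were the 4 autosomal olfactory sensory neuron markers, at 2.74% (Gnal), 4.32% (Ncam1), 27.2% (Gap43) and 34.5% (Omp). All 3 immune, both endothelial, 3 of 4 melanocyte and 2 of 3 fibroblast and dermal papilla markers had a region at least 20 points higher, again beside 71.1% of other coding genes. All 4 olfactory sensory neuron markers had such a region too. Gains of this size thus did not separate the labelled cells from others. The lowest WT levels set the 7 hair matrix and epithelium markers apart only from the immune and the fibroblast and dermal papilla markers. A lowest level also depends on how many regions are listed. Each of these 7 markers had 6 (Hoxc13) to 96 (Trp63) regions. The immune markers had 4 (Cd74) to 15 (Ptprc), and the fibroblast and dermal papilla markers 1 (Sox2) to 11 (Pdgfra). Methylation levels do not give the share of each cell type in the sort, and the part of other cells in the values at receptor genes was not tested.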

How the data were processed

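Whole-genome bisulfite sequencing libraries (2 WT, 2 DKO) were grouped by the genotype in the labels. The submitters' processing notes name Trim Galore, Bismark and the GRCm38 (mm10) build. Which tool called the regions is not given in the sources used here. All values came from 1 table of the authors' own comparison. Per the file headers, the deposited table gives each region a mean methylation level per group as a fraction, converted to percent here. The deposited table also holds a statistic (a score without fixed range), its spread estimate and position indices. It holds no read counts, p-values or library values, so depth is unknown and the planned tests on counts per library were not run. The header numbers the groups without naming them, and group 1 was read as WT because the table's title names it first; every direction would turn otherwise. All 2469 region starts inside RefSeq promoters fell on a CpG of GRCm38.p6, so coordinates were read as 1-based.

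Genes and promoters came from RefSeq (GRCm38.p6). Olfr symbols with digits gave 1100 autosomal coding genes, of which strand was matched for 934 through the promoters. Or2at4 was not matched. Class I was read from synonym family numbers (1 to 42) in place of the planned symbols. Regions were kept at an overlap of at least 1 bp. Regions named are the 8 largest gains and 8 largest losses of at least 10 positions, the 3 lowest in WT and the 3 widest, beside the 5 genes with most regions (a tie at the fifth place added 1), the clusters and the fixed lists. Olfr1298, Olfr1339, Olfr368, Olfr433, the printed promoters, the small clusters, the examples from lists and the Hbb genes were chosen after their values were seen. Position densities were interpolated from the table's position indices. The members and lists were chosen with earlier results of these data known. The overlap and position-count steps were tested on simulated data. Alternatives were the window, pseudogenes, position and width minimums, the size that counts as a gain and the cluster gap. Scripts ran in Python 3.11.15 with pandas 2.3.3, numpy 2.4.6 and matplotlib 3.10.9.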

Additional observations from a re-analysis of the deposited data

How the results depend on the processing

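Of 51 alternative values, 31 stayed near the main value and 20 moved. A change of direction was possible only for the median difference, which stayed below 0 in each of its alternatives. The other values are counts, shares and levels without a direction. Near means inside a 95% interval taken over the 924 regions for shares and medians, or within 1.5 times a count. That interval treats neighbouring regions as independent and holds no variation between libraries, so it is not an error of the value. With the gene body alone there were 169 regions at 115 genes, with a median of 78.2% in the WT, 73.9% in DKO and -5.08 points between them, and 7.10% at least 10 points lower. With 10 kb on either side there were 1502 regions at 640 genes. With at least 10 positions there were 187 regions at 145 genes, with medians of 78.6%, 74.4% and -4.99 points. In that set 81.3% were lower in the DKO, 8.02% at least 20 points higher and 4.81% at least 10 points lower. With at least 100 bp there were 480 regions, with a DKO median of 72.1%. Counting gains from 10 points gave 7.90%, and from 30 points 1.30%. Splitting clusters at 500 kb left 43 of 53 with a region in place of 38 of 48. No paired analysis was possible because the table holds only a mean per genotype. Leaving out a library and a fit with the replicate block were not run for the same reason. The depth behind each level is unknown.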

Other observations

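Other chemoreceptor families outside the nose's main repertoire differed in how many of their regions were lower. Trace amine-associated receptors, a small group of olfactory amine receptors, had 14 regions at 9 of 15 genes, with a median of -3.34 points and 13 lower in the DKO. Taste receptors had 61 regions at 18 of 38 genes, with a median of -2.06, 36 lower, 5 at least 20 points higher and 6 at least 10 points lower. All 5 regions of the bitter receptor gene Tas2r120 differed by -12.4 to -10.1 points in the authors' deposited table, while a region shared by Tas2r143 and Tas2r135 was 39.7 points higher and 1 at Tas2r144 was 36.7 points higher. Formyl peptide receptors had 7 regions at 3 of 7 genes (Fpr1, Fpr-rs6 and Fpr-rs7), of which 3 were lower, all at Fpr-rs7. Among vomeronasal receptors, the type 1 family (155 regions at 64 of 230 genes) had a median of -6.24 points and the type 2 family (298 regions at 80 of 122 genes) of -6.61. The authors' deposited table gives a single position at Vmn1r253 83.5% in WT and 50.8% in DKO. It gives a region shared by Vmn2r1 and Vmn2r2 37.5% and 83.4%.

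Of 203 protein-coding genes of other kinds inside the receptor cluster spans, 182 had a region, 102 had one at least 20 points higher in the DKO and 20 had one at least 10 points lower. Over all other coding genes these shares were 93.2%, 71.1% and 7.11%. Of the genes named here, chosen after their values were seen, the largest gain was 54.4 points at Epha1, which encodes an ephrin receptor, in the authors' deposited table. It was 52.9 at Ppfibp2, with 27 such gains among 71 regions, 45.0 at the neighbours Rnase4 and Ang, and 41.4 at Wnt3a, a signalling ligand, in the authors' deposited table. In the windows of these genes, losses reached -31.7 points at the interferon-inducible gene Ifi205 and -31.2 at Mptx1 in the authors' deposited table, both in the cluster on chromosome 1.

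On the X chromosome, 6 receptor genes are annotated and 2 had a region. In the authors' deposited table, Olfr1320 had 73.0% in WT and 64.1% in DKO, and Olfr1323 had 46.1% and 39.9%. Over all 9306 X-linked regions the median was -6.38 points and 87.8% were lower in the DKO, so the receptor regions there were near the level of their chromosome. The sex of the animals is not in the labels.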
